A study of Ovis aries with 6 samples.

Results

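Collagens are the main fibre-forming and sheet-forming proteins of the extracellular matrix. Each molecule is a helix wound from chains that are encoded by a single gene or by several. The 39 collagen chain genes described here were all those whose symbol in the count table had the form COL, a type number, A and a chain number, and whose mean level over the 6 pools was at least 0.2 CPM, the reads of a gene scaled to a fixed library size. The table listed 33609 genes, 18019 of which had enough counts to be tested, and all 39 members were among the tested genes. They comprise 11 fibrillar chains, 8 chains of the basement membrane (types IV, XV and XVIII) and 20 others. Another 3 genes had the symbol but lay under the threshold, with 0 to 5 counts per pool for COL6A5 and COL6A6 and 1 to 8 for COL28A1. The members closest above the threshold were COL20A1 and COL23A1, at 0.527 to 0.785 and 0.361 to 1.07 CPM across the pools.

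The choroid plexus is a fold of secretory epithelium, resting on a basement membrane over a core of fibroblasts and capillaries, that makes cerebrospinal fluid in the brain ventricles. Fibrillar collagens form the fibres of such a core, and type IV collagen forms the sheet on which epithelial and endothelial cells rest. Type IV chains assemble in fixed combinations, COL4A1 with COL4A2 in nearly all basement membranes and COL4A3, COL4A4, COL4A5 and COL4A6 in a smaller number of tissues, the kidney glomerulus being the best known. Other collagens decorate fibrils, build beaded filaments or hexagonal lattices, or span the cell membrane.

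Choroid plexus RNA came from ewes (Ovis aries) kept in long days after surgical thyroidectomy (THX), from control ewes in long days (Long) and from control ewes in short days (Short). The design text gives 7 ewes in the THX group and 8 in each of the other groups, mixed in equal amounts into 2 pools per group of 3 to 4 ewes each, although it puts the study at 24 ewes in all. The sources used here give no breed or age. All levels are CPM scaled by TMM factors. Each p-value rests on how far the pools of a group differ, since the ewes were mixed. In the main fit this spread was taken over all groups together and drawn towards that of other genes. It is therefore not the spread of the 2 compared groups alone. In bulk tissue, fewer cells of a type and less RNA per cell cannot be told apart.

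Total counts ran from 48282883 to 82100653 per pool. TTR, the transthyretin gene that marks choroid plexus epithelium, stood at 118872 and 140707 CPM in THX pools, 107613 and 109231 CPM in Long pools and 86397 and 92709 CPM in Short pools. The 3 groups were separate, in the order Short, Long, THX from low to high, which 23.2% of all tested genes had by group means. The reverse order was found in 17 of the 39 collagens and in 23.4% of all tested genes. The log2 difference of TTR was 0.26 (adjusted p = 0.473 by the quasi-likelihood test of edgeR) for THX against Long, 0.28 (adjusted p = 0.342) for Long against Short and 0.54 (adjusted p = 0.058) for THX against Short. The 17 epithelial markers in the table were mixed, with 10 above and 7 below 0 in THX against Long, where HTR2C, named after its values were seen, fell (log2 difference −0.73, adjusted p = 0.0203). HR, a known target of thyroid hormone, had 3.36 and 2.76 CPM in THX pools, against 23.7 and 23.4 CPM in Long pools and 25.6 and 25.3 CPM in Short pools. It fell in THX relative to Long pools (log2 difference −2.94, adjusted p = 0.000835 by the quasi-likelihood test of edgeR). When the tested genes were reduced to principal components, THX pool 2 (−31.0) and Short pool 1 (28.9) lay at the ends of the first component and THX pool 1 (31.0) lay apart on the second. Leaving out 1 pool of the 6 moved the log2 difference by over 1.5 times, or turned its sign, in 31 of the 39 collagens for THX against Long, 36 for Long against Short and 31 for THX against Short. Such moves are given beside many of the members but not beside every value, so a value printed without them may also move.

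**Figure D1:**
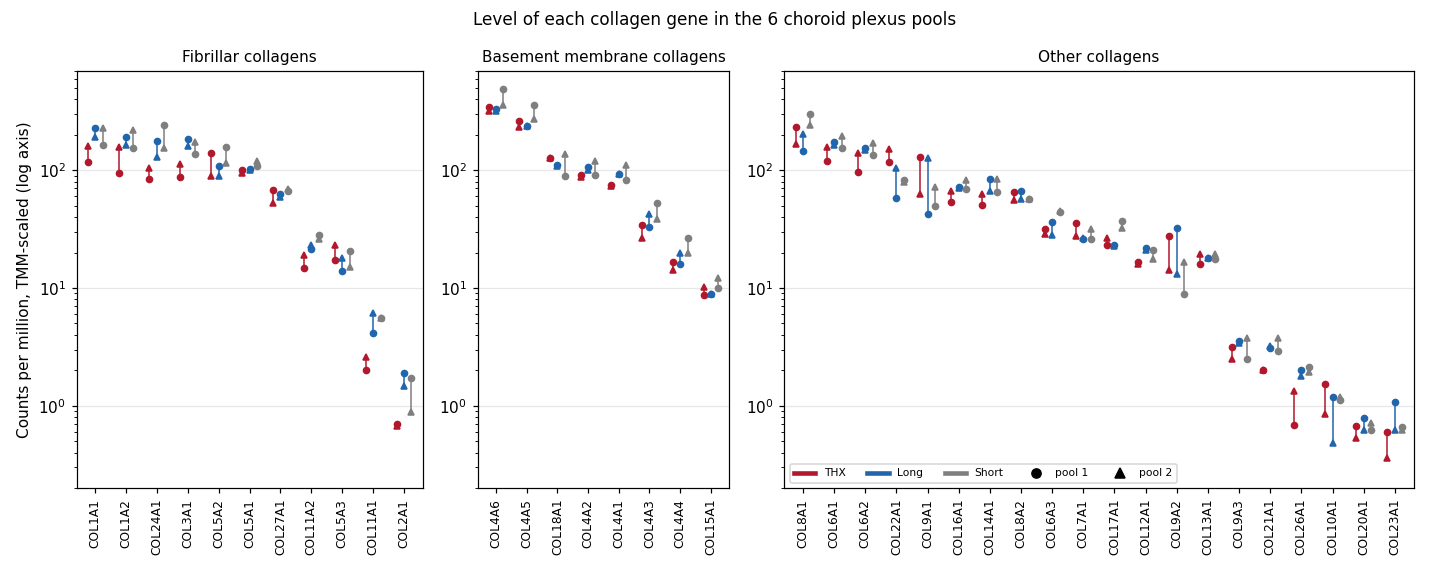
Level of each of the 39 collagen genes in CPM on a log axis, with THX, Long and Short pools in red, blue and grey, pool 1 as a circle and pool 2 as a triangle, and a line joining the 2 pools of a group. Levels of different genes are not corrected for transcript length. COL11A1 lies at 2.02 and 2.59 CPM in THX pools, apart from the other 4 pools, and COL9A1 differs more between the 2 Long pools than between groups.

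The fibrillar chains were the class with the lowest values in THX pools. Summed over the 11 genes, they reached 727.5 and 817 CPM in THX pools, 1096 and 948 CPM in Long pools and 1091 and 1129 CPM in Short pools, and both THX pools lay below the other 4. None of the 39 members passed the test in THX against Long pools, where 0.283% of all tested genes did. The median log2 difference was −0.51 over the fibrillar chains and 0.0011 over all tested genes. In 7 of the 11 chains both THX pools lay below both Long pools, a position held by 18.7% of all tested genes, and no fibrillar chain had both THX pools above. The fibrillar median was −0.22 without THX pool 1 and −0.83 without THX pool 2.

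COL3A1 encodes the chain of type III collagen, found with type I in distensible tissues. It had 88.4 and 112 CPM in THX pools, against 183 and 162 CPM in Long pools and 138 and 172 CPM in Short pools. Both THX pools were lower than each of the other 4, and the Long and Short pools overlapped. The THX level was 1.71-fold lower than the Long level (log2 difference −0.78, SE 0.15, unadjusted p = 0.00134), the lowest p of the 39 members in this comparison, and it did not pass after adjustment over all tested genes (adjusted p = 0.16 by edgeR). Against Short pools the log2 difference was −0.63 (SE 0.15, adjusted p = 0.0964).

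COL1A1 and COL1A2 encode the chains of type I collagen, the main fibre of connective tissue. COL1A1 had 119 and 161 CPM in THX pools, 229 and 192 CPM in Long pools and 165 and 229.8 CPM in Short pools. Its THX pools were the lowest of the 6, but THX pool 2 and Short pool 1 differed by only 161 against 165 CPM. The log2 difference was −0.59 (SE 0.20, adjusted p = 0.426) against Long and −0.50 (SE 0.20, adjusted p = 0.2) against Short. Without THX pool 1 these were −0.39 and −0.29, and without Short pool 2 the second was −0.24. COL1A2 had 94.0 and 157 CPM in THX pools, 192 and 165 CPM in Long pools and 154 and 219 CPM in Short pools. THX pool 1 alone lay far below the rest, and THX pool 2 lay within the range of the Short pools. The log2 difference from Long was −0.51 (SE 0.26, adjusted p = 0.645), which was −0.18 without THX pool 1 and −0.92 without THX pool 2.

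COL24A1, a minor fibrillar chain described in mouse bone and cornea, had 84.7 and 104 CPM in THX pools, against 178 and 131 CPM in Long pools and 244 and 156 CPM in Short pools. The groups THX and Long did not overlap, nor did THX and Short, whereas Long and Short did. The log2 difference was −0.71 (SE 0.24, adjusted p = 0.414) against Long and −1.08 (SE 0.24, adjusted p = 0.0819) against Short, and −0.37 (adjusted p = 0.482) between Long and Short. The highest of the 6 was Short pool 1, without which Long against Short was −0.012. THX against Long was −0.47 without Long pool 1.

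The chains of type XI collagen nucleate fibrils, chiefly in cartilage. COL11A1 had 2.02 and 2.59 CPM in THX pools, 4.12 and 6.16 CPM in Long pools and 5.61 and 5.52 CPM in Short pools. Every THX value was under every other value. Its log2 difference was −1.15 (SE 0.25, adjusted p = 0.193) against Long and −1.27 (SE 0.25, adjusted p = 0.0702) against Short, the lowest adjusted p of any member in any comparison. COL11A2 had 14.7 and 19.2 CPM in THX pools, 21.6 and 23.3 CPM in Long pools and 28.1 and 26.1 CPM in Short pools. Here all 3 groups were separate, with THX lowest and Short highest. The log2 difference was −0.40 (adjusted p = 0.441) for THX against Long and −0.68 (SE 0.14, adjusted p = 0.076) for THX against Short. The first was −0.22 without THX pool 1 and −0.61 without THX pool 2.

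COL2A1, the main chain of cartilage fibrils, had 0.704 and 0.678 CPM in THX pools, against 1.91 and 1.47 CPM in Long pools and 1.71 and 0.876 CPM in Short pools. Its log2 difference from Long was −1.29 (SE 0.38, adjusted p = 0.33) on 40 and 45 counts in the THX pools. Of the markers of cartilage and bone, SOX9 and CNMD made up most of the summed level. The proteoglycan ACAN had at most 0.229 CPM in THX pools, 0.1104 CPM in Long pools and 0.284 CPM in Short pools, MATN1 was at 0 in Long pool 1 and IBSP at 0 in Short pool 1. The 11 markers of this list summed to 194 to 219.9 CPM in THX pools, 247 to 276.5 CPM in Long pools and 258.5 to 271 CPM in Short pools. In THX against Short pools 4 of the 9 tested markers lay above 0 and 5 below. COMP, which binds collagen fibrils, was the marker that passed (9.17 and 10.5 against 3.11 and 3.76 CPM, log2 difference 1.52, adjusted p = 0.036 by edgeR). Its sign was opposite to that of the type II and type XI chains.

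The chains of type V collagen, which start and limit the growth of type I fibrils, did not share the lower values of the type I and III chains in THX relative to Long pools. COL5A1 had 99.9 and 94.6 CPM in THX pools, 102 and 99.9 CPM in Long pools and 108 and 120.3 CPM in Short pools, a range of 1.27-fold and the narrowest of the class. Its log2 difference was −0.05 (SE 0.08, adjusted p = 0.961 by edgeR) for THX against Long and −0.18 (SE 0.08, adjusted p = 0.373) for Long against Short, the second being −0.10 without Short pool 2. In THX against Short it was −0.23 (SE 0.08, adjusted p = 0.166), or −0.15 without Short pool 2. Both THX pools lay below both Short pools, as in COL1A1 and COL3A1 and in 26.7% of all tested genes. COL5A2, with 139 and 89.1 CPM in THX pools, 108 and 89.6 CPM in Long pools and 158 and 115 CPM in Short pools, varied more within each group than between THX and Long. It lay at −0.47 (SE 0.23, adjusted p = 0.402) in Long against Short, and at −0.22 without Short pool 1. COL5A3 and the cartilage-type chain COL27A1 were at 0.34 and −0.03 for THX against Long (adjusted p = 0.747 and 0.988 by edgeR). Without 1 pool COL5A3 ran from 0.12 to 0.54 and COL27A1 from −0.22 to 0.15.

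**Figure D2:**
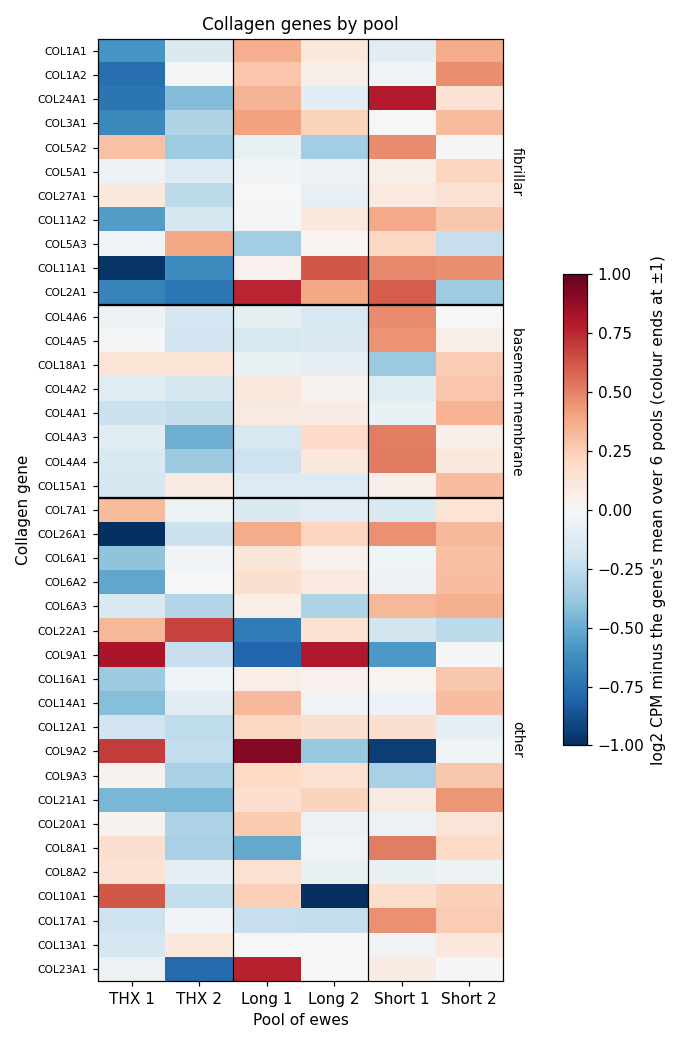
Log2 CPM of each collagen gene minus its own mean over the 6 pools, with pools in columns and genes in rows grouped as fibrillar, basement membrane and other, blue for low and red for high, the colour ending at ±1. Most fibrillar rows are blue in the THX columns, and the rows COL4A3 to COL4A6, COL8A1 and COL24A1 are reddest in Short pool 1.

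Markers of stromal cells were set beside the fibrillar chains. Of 18 markers of fibroblasts and leptomeninges, 17 were in the table and 16 were tested. In THX against Long pools 12 of these had a log2 difference below 0 (median −0.09), as did 49.7% of all tested genes. The other 4 lay above 0, at up to 1.44, and none of these 4 passed. Lumican (LUM), a proteoglycan that binds fibrillar collagen, was the marker of this list that passed. It had 52.1 and 56.7 CPM in THX pools, against 86.0 and 95.3 CPM in Long pools and 82.5 and 82.8 CPM in Short pools (log2 difference −0.74 from Long, SE 0.09, adjusted p = 0.0314 by edgeR). Its call was lost in each of the 6 fits that left out 1 pool (log2 difference −0.81 to −0.66). Decorin (DCN) had 59.2 and 65.4 CPM in THX pools, 85.2 and 90.5 CPM in Long pools and 76.1 and 106 CPM in Short pools. It lay at −0.50 from Long (adjusted p = 0.377). Summed over the list, these markers reached 909.6 and 1176 CPM in THX pools, 1119 and 1178 CPM in Long pools and 1030 and 1262 CPM in Short pools, so that THX pool 1 was lowest and THX pool 2 lay among the others. The fibroblast receptor PDGFRA had 29.0 and 28.6 CPM in THX pools, 30.9 and 30.01 CPM in Long pools and 40.6 and 36.1 CPM in Short pools. DPT was at 0 in THX pool 2 and Long pool 1 and too low to be tested. Of 14 markers of pericytes and smooth muscle, 13 were tested and 9 lay below 0, and their sum was 1524 and 1782 CPM in THX pools, 1835 and 1794 CPM in Long pools and 1721 and 2081 CPM in Short pools. Ependymal, macrophage and oligodendrocyte markers were also compared between THX and Long pools, and none of them passed. Of 11 tested ependymal markers 10 lay above 0 (sums 976 and 1061 CPM in THX pools, against 897 and 835 CPM in Long pools). Of 10 macrophage markers 9 lay below 0, with sums of 222 and 235 CPM in THX pools and 259.6 and 273 CPM in Long pools, and of 10 oligodendrocyte markers 8 lay below 0. The part of these cell types in the fibrillar values was not tested.

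**Figure D3:**
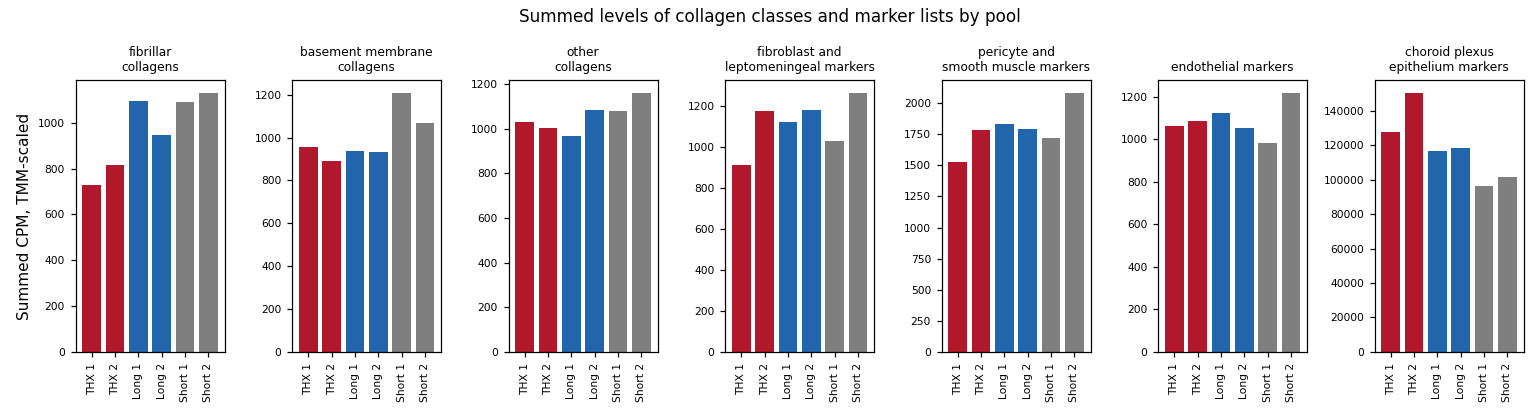
Summed CPM of the fibrillar, basement membrane and other collagens and of 4 lists of cell markers in each pool, as bars from 0, with THX in red, Long in blue and Short in grey. Fibrillar collagens are lowest in both THX pools (727.5 and 817 CPM), and the fibroblast and leptomeningeal markers are lowest in THX pool 1.

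The basement membrane chains did not follow the fibrillar chains in THX against Long pools. Their sums were 957 and 888.5 CPM in THX pools, 937 and 930.2 CPM in Long pools and 1207 and 1069 CPM in Short pools, so THX and Long overlapped and Short was highest. The median log2 difference of the 8 chains was −0.10 in THX against Long, with 4 above and 4 below 0, and no member passed. In 2 of the 8 both THX pools lay below both Long pools, against 18.7% of all tested genes, and in 1 they lay above. The median of the 6 type IV chains alone was −0.21, and that of all 8 was −0.032 without Long pool 2.

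COL4A1 and COL4A2 were the chains with both THX pools below both Long pools. COL4A1 had 74.9 and 73.7 CPM in THX pools, 92.7 and 92.4 CPM in Long pools and 83.4 and 111 CPM in Short pools, so the THX pools were the lowest of the 6. The log2 difference was −0.32 (SE 0.13, adjusted p = 0.542) against Long and −0.39 (SE 0.13, adjusted p = 0.158) against Short, the second being −0.58 without Short pool 1 and −0.17 without Short pool 2. COL4A2 had 90.4 and 87.1 CPM in THX pools, 106 and 101 CPM in Long pools and 90.3 and 119 CPM in Short pools. Its THX pools lay below both Long pools but overlapped with Short pool 1, which was at nearly the level of THX pool 1. The log2 difference from Long was −0.22 (SE 0.13, adjusted p = 0.731).

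COL4A5 and COL4A6, chains of the less widespread type IV networks, separated Short from the long-day groups. COL4A5 had 260.0 and 231 CPM in THX pools, 236 and 239 CPM in Long pools and 359.9 and 274 CPM in Short pools. THX and Long overlapped, and both Short pools were higher than the other 4. The log2 difference was 0.05 (adjusted p = 0.98) for THX against Long and −0.42 (SE 0.13, unadjusted p = 0.0158, adjusted p = 0.342) for Long against Short. COL4A6 had 344 and 317 CPM in THX pools, 334 and 318 CPM in Long pools and 494 and 355 CPM in Short pools. Its log2 difference was 0.02 (adjusted p = 0.993) for THX against Long and −0.38 (SE 0.15, adjusted p = 0.35) for Long against Short. Short pool 1 was the highest for both genes. Without it Long against Short was −0.21 for COL4A5 and −0.12 for COL4A6, and without Short pool 2 it was −0.60 for both. In the reference annotation (assembly ARS-UI_Ramb_v3.0, used for names and neighbours alone) the genes COL4A5 and COL4A6 overlap each other, and the sources used here give no strand setting for the counting, and their counts may share reads.

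COL4A3 and COL4A4, neighbours in the same annotation, had lower levels. COL4A4 had 16.6 and 14.3 CPM in THX pools, 16.0 and 19.8 CPM in Long pools and 26.4 and 19.8 CPM in Short pools. THX and Short did not overlap (log2 difference −0.58, SE 0.18, adjusted p = 0.136), while Long overlapped with both. COL4A3 was at −0.59 (SE 0.20, adjusted p = 0.16) in the same comparison, and without Short pool 1 the values were −0.36 for COL4A4 and −0.33 for COL4A3. COL18A1, whose product is cut to release endostatin, had 128 and 128 CPM in THX pools, 111 and 109 CPM in Long pools and 89.98 and 139 CPM in Short pools. It was the basement membrane chain with both THX pools above both Long pools (log2 difference 0.22, SE 0.18, adjusted p = 0.85), and the Short pools lay on either side of both groups. COL15A1 had a log2 difference of 0.10 for THX against Long (adjusted p = 0.958 by edgeR), which ran from −0.029 to 0.22 without 1 pool.

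Among the 20 other collagens the median log2 difference in THX against Long pools was −0.18, which was −0.31 without Long pool 2 and −0.11 without THX pool 2. Both THX pools lay below both Long pools in 9 of them and above in 3, against 18.7% and 18.5% of all tested genes. Their sums were 1030 and 1001 CPM in THX pools, 968 and 1083 CPM in Long pools and 1077 and 1159 CPM in Short pools, which overlapped between THX and Long.

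COL6A1 and COL6A2, chains of the beaded filaments that lie around cells, had values like those of the type I chains. COL6A1 had 120.3 and 156 CPM in THX pools, 173 and 164 CPM in Long pools and 155 and 196 CPM in Short pools. COL6A2 had 97.1 and 139 CPM in THX pools, 155 and 149 CPM in Long pools and 134 and 172 CPM in Short pools. In both genes THX pool 1 was the lowest of the 6, the THX pools lay below the Long pools, and THX pool 2 overlapped with the Short pools. The log2 differences from Long were −0.29 (SE 0.15, adjusted p = 0.668) and −0.36 (SE 0.18, adjusted p = 0.638). Without THX pool 1 they were −0.11 and −0.13, and without THX pool 2 they were −0.49 and −0.65. COL6A3, the large chain of the same filament, had 31.5 and 28.6 CPM in THX pools, 36.7 and 28.3 CPM in Long pools and 44.1 and 44.9 CPM in Short pools. It separated Short from the other groups instead, at −0.45 (SE 0.13, unadjusted p = 0.0102, adjusted p = 0.342) for Long against Short and −0.57 (SE 0.13, adjusted p = 0.0895) for THX against Short. The first was −0.27 without Long pool 2.

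The fibril-associated chains were divided. COL12A1, which binds type I fibrils, had 16.6 and 15.9 CPM in THX pools, 21.8 and 21.2 CPM in Long pools and 21.1 and 17.7 CPM in Short pools. The THX pools were the lowest of the 6, and the log2 difference from Long was −0.41 (SE 0.11, unadjusted p = 0.00926, adjusted p = 0.308). COL21A1 had 2.007 and 2.003 CPM in THX pools, 3.10 and 3.22 CPM in Long pools and 2.93 and 3.74 CPM in Short pools, again with THX lowest. Its log2 difference was −0.66 (SE 0.21, adjusted p = 0.395) against Long and −0.73 (SE 0.21, adjusted p = 0.124) against Short. COL14A1 and COL16A1 also had both THX pools below the other 4, at −0.41 and −0.24 from Long (adjusted p = 0.55 and 0.668), or −0.26 and −0.093 without THX pool 1.

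COL22A1, a chain described at tissue junctions such as that of muscle and tendon, had the opposite order. It had 118 and 151 CPM in THX pools, 57.7 and 104 CPM in Long pools and 83.2 and 78.8 CPM in Short pools. It was the collagen in which both THX pools lay above each of the other 4, a position held by 11% of all tested genes. The log2 difference was 0.74 (SE 0.26, adjusted p = 0.439) against Long and 0.73 (SE 0.25, adjusted p = 0.165) against Short, and it was −0.0030 between Long and Short. The difference from Long was 0.37 without Long pool 1 and 1.22 without Long pool 2. That of Long against Short was 0.36 without Long pool 1 and −0.48 without Long pool 2.

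COL9A1 and COL9A2, chains that coat cartilage fibrils, varied most within groups. COL9A1 had 129.8 and 62.5 CPM in THX pools, 42.5 and 128 CPM in Long pools and 49.4 and 72.7 CPM in Short pools. COL9A2 had 27.6 and 14.3 CPM in THX pools, 32.1 and 13.05 CPM in Long pools and 8.87 and 16.5 CPM in Short pools. The 2 Long pools differed 3.02-fold in COL9A1 and 2.46-fold in COL9A2, in opposite directions. Such a within-group fold or a larger one was seen in 1.26% and 1.95% of the 14812 tested genes with a mean of at least 1 CPM. COL10A1, the chain of hypertrophic cartilage, differed 2.43-fold between Long pools at 1.18 and 0.478 CPM. In these 3 genes the groups overlapped in every comparison. The median of the largest within-group fold was 1.33 over the 39 collagens and 1.18 over those 14812 genes.

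The remaining chains include lattice, anchoring and membrane-spanning collagens. COL8A1, a short chain of hexagonal lattices, had 235 and 167 CPM in THX pools, 147 and 204 CPM in Long pools and 299 and 241 CPM in Short pools. Short lay above both other groups (log2 difference of Long against Short −0.62, SE 0.21, unadjusted p = 0.022, adjusted p = 0.342, and −0.40 without Long pool 1). Its partner COL8A2 stayed within 55.7 to 66.0 CPM in all 6 pools, the narrowest range of the 39 members at 1.19-fold. COL17A1, the membrane-spanning collagen of hemidesmosomes, had 23.4 and 26.5 CPM in THX pools, 23.0 and 22.9 CPM in Long pools and 37.0 and 32.2 CPM in Short pools. Both Short pools lay above the other 4. The log2 difference for Long against Short was −0.59 (SE 0.11, unadjusted p = 0.000871, adjusted p = 0.342), the lowest unadjusted p of the members in that comparison, and for THX against Short it was −0.47 (SE 0.11, adjusted p = 0.0872). COL7A1, the chain of anchoring fibrils, was at 0.27 for THX against Long (adjusted p = 0.696 by edgeR), and COL13A1 at −0.03 (adjusted p = 0.987). Without 1 pool COL7A1 ran from 0.070 to 0.44 and COL13A1 from −0.17 to 0.10 in this comparison. COL26A1 and COL23A1, which reached at most 2.12 and 1.07 CPM in any pool, were at −0.90 and −0.83 (adjusted p = 0.478 and 0.638), and COL26A1 at −0.51 without THX pool 1 and COL23A1 at −0.39 without Long pool 1.

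**Figure D4:**
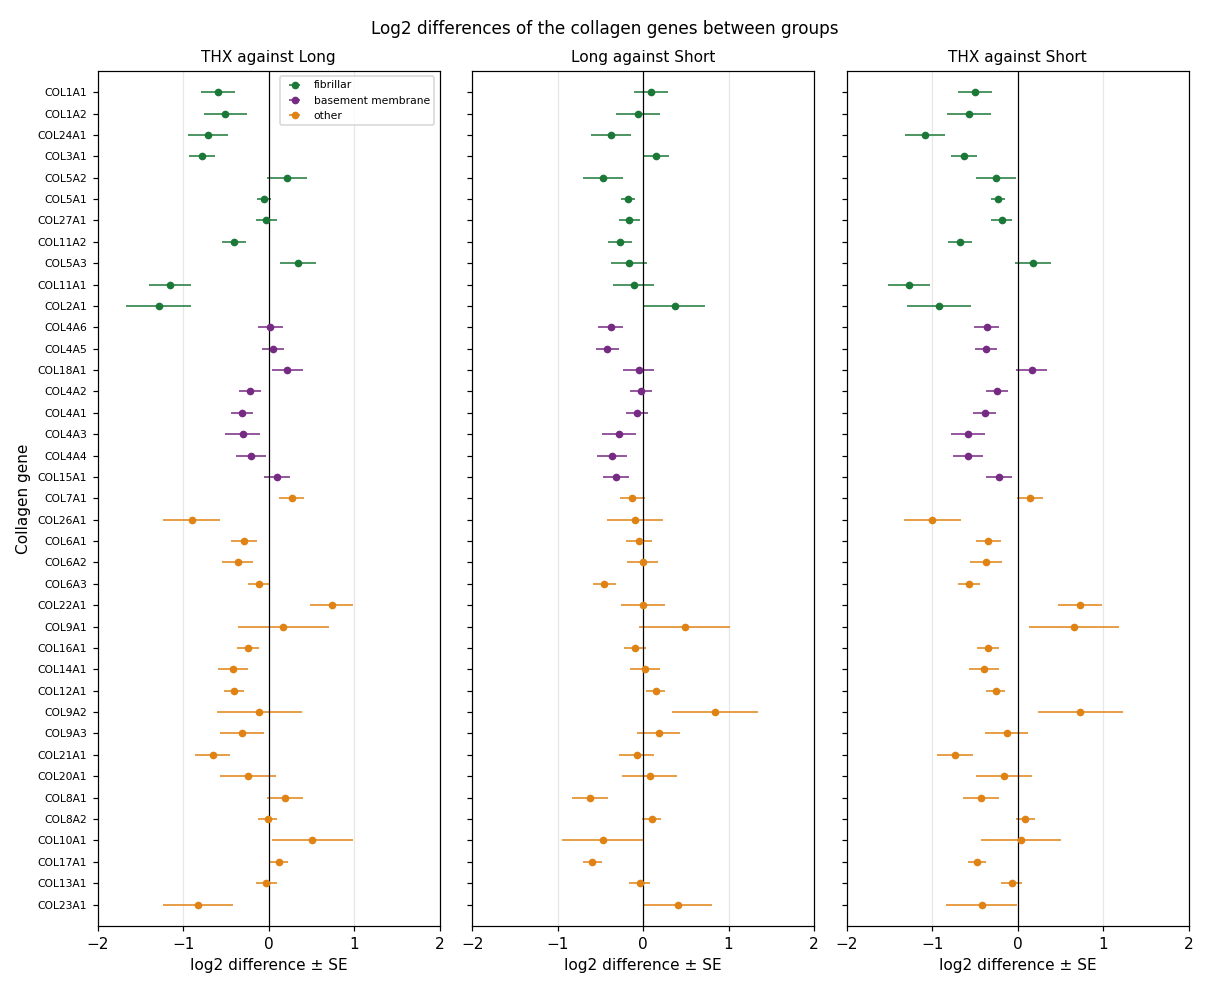
Log2 difference and its SE for the 39 collagen genes in THX against Long, Long against Short and THX against Short pools, coloured by class. Values left of 0 are lower in the group named first. COL3A1, COL11A1 and COL24A1 lie at −0.78, −1.15 and −0.71 in the left panel, and COL17A1 at −0.59 in the middle panel.

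The comparison of THX with Long pools asks what loss of the thyroid does at constant day length. Over the 39 collagens the median log2 difference was −0.22, with 27 below and 12 above 0 where 49.7% of all tested genes lay below. The count of 0 passing members came from edgeR, in which 10 members had an unadjusted p under 0.05 in the downward and 1 in the upward direction, against 4.92% and 4.16% of all tested genes. Limma-voom also called 0 members. DESeq2 called 3, all lower in THX pools, at a background of 1.45% lower calls. They were COL3A1 (log2 difference −0.78, adjusted p = 0.000124), COL11A1 (−1.15, adjusted p = 0.00416) and COL24A1 (−0.71, adjusted p = 0.0463). In 18 members both THX pools lay below both Long pools and in 4 above, against 18.7% and 18.5% of tested genes. Without THX pool 2 the median over the 39 was −0.12.

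The comparison of Long with Short pools asks what day length does with the thyroid in place, and it shares the Long pools with the first. None of the 39 members passed by edgeR, and the share of all tested genes that passed was 0%. The median log2 difference was −0.07 over the 39 collagens, −0.16 over the fibrillar, −0.30 over the basement membrane and −0.02 over the other chains, beside −0.0025 over all tested genes. All 8 basement membrane chains lay below 0, from −0.42 to −0.022, as did 50.3% of all tested genes, and in 3 of them both Long pools lay below both Short pools, against 26.8% of all tested genes. By edgeR 5 members had an unadjusted p under 0.05, all lower in Long pools (COL17A1, COL6A3, COL4A5, COL8A1 and COL4A6), against 7.33% of tested genes. DESeq2 called COL17A1 (log2 difference −0.59, adjusted p = 0.00423), at a background of 0.72% lower calls, and limma-voom called 0. The DESeq2 share is over the 14176 genes to which it gave an adjusted p, and 4 of the 39 members had none. The median over the 39 was −0.15 without Short pool 1 and 0.025 without Short pool 2. For the basement membrane chains, omitting Short pool 1 gave −0.21 and omitting Long pool 1 gave −0.17. Without Short pool 2, COL18A1, COL4A2 and COL4A1 turned to 0.29, 0.19 and 0.15, and the other chains of this class stayed below 0.

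THX against Short pools combines both differences, and it shares the THX and the Short pools with the comparisons above. None of the 39 members passed by edgeR, where 0.916% of all tested genes did. An unadjusted p under 0.05 was found for 17 members in the downward and 1 in the upward direction, against 11.8% and 10.8% of all tested genes. The median log2 difference was −0.36 over the 39, −0.57 over the fibrillar, −0.37 over the basement membrane and −0.30 over the other chains, beside −0.0081 over all tested genes. Both THX pools lay below both Short pools in 21 members and above in 1, against 26.7% and 25.7% of all tested genes. DESeq2 called 8 members, all lower, at a background of 6.06% lower calls: COL3A1, COL11A1, COL11A2, COL24A1, COL4A3, COL4A4, COL6A3 and COL17A1, with log2 differences from −1.26 to −0.47. This share is over the 14525 genes to which DESeq2 gave an adjusted p, and 3 of the 39 members had none. Limma-voom called 0. Without Short pool 2 the median was −0.22 over the 39 and −0.17 over the other chains.

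Taking the 3 groups at once, both THX pools lay below all 4 pools of ewes with a thyroid in 13 of the 39 collagens and above all 4 in COL22A1. Among all tested genes these positions were held by 11.3% and 11%. The 13 were COL1A1, COL3A1, COL24A1, COL11A1, COL11A2 and COL2A1 of the fibrillar class, COL4A1 of the basement membrane class, and COL12A1, COL14A1, COL16A1, COL21A1, COL23A1 and COL26A1. By group means, 17 members had the order THX, Long, Short from low to high, which 23.4% of tested genes had, and 8 had the order THX, Short, Long, which 11.7% had. The order Short, Long, THX was found in 1 member and in 23.2% of tested genes.

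Chains that share a trimer kept their ratio to different degrees. The log2 ratio of COL1A1 to COL1A2 counts was 0.33 and 0.03 in THX pools, 0.26 and 0.21 in Long pools and 0.10 and 0.07 in Short pools, so THX spanned the range of the other groups. That of COL4A1 to COL4A2 was −0.27 and −0.24 in THX pools, −0.19 and −0.12 in Long pools and −0.11 and −0.10 in Short pools. These 3 groups did not overlap, although the whole range was 0.17. An exact permutation test of 2 pools against 2 cannot go below a two-sided p of 0.333, and no other test of the ratios was made. The pair COL4A5 and COL4A6 was added after its values were seen, and the pair COL9A1 and COL9A3, given below, was not planned either. COL4A3 to COL4A4, COL4A5 to COL4A6 and COL6A1 to COL6A2 had ranges of 0.21, 0.13 and 0.17 over the 6 pools, while the chains themselves ranged 1.56-fold to 2.003-fold.

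Other partners had wider ranges. The log2 ratio of COL8A1 to COL8A2 was 1.84 and 1.59 in THX pools, 1.16 and 1.86 in Long pools and 2.40 and 2.07 in Short pools, a range of 1.24 with Short highest. That of COL6A3 to COL6A1 was −1.93 and −2.45 in THX pools, −2.24 and −2.54 in Long pools and −1.81 and −2.12 in Short pools. That of COL5A1 to COL5A2 was −0.48 and 0.09 in THX pools, −0.09 and 0.16 in Long pools and −0.55 and 0.07 in Short pools. Here pool 1 was lower than pool 2 in each group, and the groups overlapped. COL9A1 to COL9A3 had a range of 1.78, wider than that of COL8A1 to COL8A2. Its log2 ratio was 5.36 and 4.66 in THX pools, 3.58 and 5.22 in Long pools and 4.32 and 4.29 in Short pools.

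**Figure D5:**
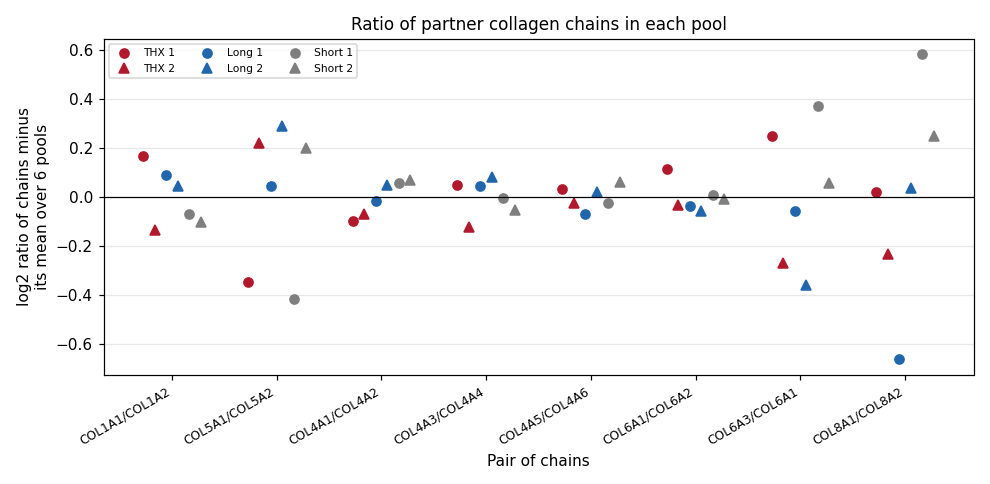
Log2 ratio of the CPM of paired collagen chains in each pool, minus the mean of that ratio over the 6 pools, with THX in red, Long in blue and Short in grey, pool 1 as a circle and pool 2 as a triangle. The pairs of neighbouring type IV and type VI genes stay within a range of 0.13 to 0.21, and COL8A1/COL8A2 spans 1.24. The pair COL9A1/COL9A3 is not drawn.

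Genes that process collagen had, as a list, a median near 0. Of 28 enzymes, chaperones and procollagen proteases, 26 were tested, and 14 lay below and 12 above 0 in THX against Long pools (median −0.01), with none passing. PCOLCE, which enhances the removal of the procollagen tail, had 72.8 and 92.5 CPM in THX pools, 124 and 115 CPM in Long pools and 85.0 and 110.5 CPM in Short pools (log2 difference from Long −0.53, adjusted p = 0.333). BMP1, the protease that removes this tail, had 26.8 and 29.0 CPM in THX pools, 36.8 and 35.6 CPM in Long pools and 31.8 and 37.2 CPM in Short pools. It lay at −0.37 from Long (adjusted p = 0.291). Both THX pools were the lowest of the 6 for BMP1, whereas PCOLCE in THX pool 2 lay between the Short pools. TLL2, a relative of BMP1, was at 1.63 (adjusted p = 0.467) with levels of 0.211 and 0.467 CPM in THX pools, 0.089 and 0.129 CPM in Long pools and 0.154 and 0.159 CPM in Short pools. The collagen chaperone SERPINH1 had 311 and 281 CPM in THX pools, 331 and 287 CPM in Long pools and 267 and 267 CPM in Short pools. In Long against Short pools the export receptor MIA3, the isomerase PPIB and P3H3 had log2 differences of −0.28, 0.25 and 0.31 (adjusted p = 0.342 each). P3H4 was at 0.41 in THX against Short pools (adjusted p = 0.152).

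Of the 11 collagen receptors, none passed in any comparison. DDR2, a receptor kinase for fibrillar collagen, had 3.20 and 1.67 CPM in THX pools, 3.16 and 3.37 CPM in Long pools and 6.74 and 6.91 CPM in Short pools. Short was apart from both other groups, with log2 differences of −1.06 for Long against Short (adjusted p = 0.342) and −1.49 for THX against Short (adjusted p = 0.0721). The integrin chain ITGA1 lay at −0.33 and −0.38 in the same comparisons (adjusted p = 0.349 and 0.159), and its partner ITGB1 at −0.22 in THX against Short (adjusted p = 0.201). LAIR1 and ITGA10, an inhibitory leukocyte receptor and an integrin chain, were at 0.49 and 0.43 in THX against Long (adjusted p = 0.401 and 0.464 by edgeR). Both had both THX pools above both Long pools, a position held by 18.5% of all tested genes. DDR1, the epithelial relative of DDR2, was at 0.11 (adjusted p = 0.765).

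Laminins and other basement membrane proteins had a median of −0.01 in THX against Long pools, with 5 genes separate upward and 5 downward. The 6 type IV chains had −0.21, with 0 upward and 2 downward. Among all tested genes 18.5% were separate upward and 18.7% downward. Of the 20 laminins and other proteins, 18 were tested, and 17 of these lay below 0 in Long against Short pools (median −0.17). In 12 of them both Long pools lay below both Short pools, against 26.8% of all tested genes. None passed. LAMA4, a laminin chain of vessels, had 51.5 and 43.4 CPM in THX pools, 59.3 and 57.5 CPM in Long pools and 69.4 and 72.8 CPM in Short pools, so all 3 groups were separate. Its log2 difference was −0.30 (adjusted p = 0.408) for THX against Long, −0.28 (adjusted p = 0.342) for Long against Short and −0.58 (SE 0.10, adjusted p = 0.0552) for THX against Short. FREM2, a protein of embryonic basement membranes, was at −0.74 in THX against Short pools (adjusted p = 0.0785). LAMA5 and the nidogen NID2 lay at 0.30 and 0.20 in THX against Long pools (adjusted p = 0.462 and 0.554), and the perlecan gene HSPG2 at −0.32 in Long against Short pools (adjusted p = 0.342). The 16 endothelial markers summed to 1064 and 1083 CPM in THX pools, 1122 and 1051 CPM in Long pools and 984 and 1216 CPM in Short pools, with 8 above and 8 below 0 in Long against Short pools. Their part in the basement membrane values was not tested.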

How the data were processed

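Poly(A) RNA libraries of 6 pools of sheep choroid plexus were sequenced after Illumina stranded preparation, per the labels' protocols. The deposited values are raw read counts per gene, with the gene symbol beside the identifier. The submitters' processing notes name TopHat2 2.1.1 and featureCounts 2.0.0, beside SAMtools 1.9, bcl2fastq 2.20, MultiQC 1.9 and FastQC 0.11.8. Genome build, annotation and strand setting: not given in the sources used here.

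Counts were filtered with filterByExpr (minimum count 10, by group), scaled by TMM and fitted over all 6 pools with the quasi-likelihood test of edgeR 4.0.16 in R 4.3.3 (residual df 3, prior df 3.96). P-values were adjusted over all 18019 tested genes by Benjamini-Hochberg, with a threshold of 0.05. DESeq2 1.42.0, limma-voom (limma 3.58.1), other scalings and filters, a looser threshold, a block on pool number and fits without each pool were alternatives.

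The members and lists were chosen with earlier results of these data known. Values in every pool are given for the 4 members of each class with the highest mean level and the 2 with the lowest unadjusted p in each comparison. Some members described further also have them. Of each related list up to 3 genes so ranked are named, many of them by log2 difference and adjusted p alone. Log2 ratios of chains are not corrected for length. Some genes of the lists (such as P4HA2, ADAMTS2, LAMB2 and FRAS1) were not analysed here. Of the 39 members, 12 overlap another gene in the reference annotation, among them COL8A1, COL9A3 and COL10A1. A result on 1 withheld gene is not reported here.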

Additional observations from a re-analysis of the deposited data

How the results depend on the processing

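The number of passing collagens stayed at 0 in all 3 comparisons under DESeq2 size factors, limma-voom, a minimum mean of 1 CPM, the fits with only the 4 pools compared and each fit without 1 pool. It was 1 in THX against Long without a filter (COL3A1) and 3 with DESeq2, and 1 in Long against Short with DESeq2. The shares of lower calls over the genes with an adjusted p were 0.589%, 1.45% and 0.72%. In THX against Short it was 1 with total counts as scaling, 6 without a filter, 8 with DESeq2 and 6 at an adjusted p under 0.1. Here the shares of lower calls were 1.17%, 2.06%, 6.06% and 2.69%. All these collagen calls were lower in the group named first. Without a filter the genes numbered 23749. Over all tested genes the 51 calls in THX against Long became 204 without a filter, 448 with DESeq2, 22 with only the 4 pools compared, 92 at an adjusted p under 0.1, and 2 to 37 without 1 pool. The 0 calls in Long against Short became 159 with DESeq2 and 0 to 4 without 1 pool. The 165 calls in THX against Short became 259 with total counts, 908 without a filter, 1761 with DESeq2, 11 with only the 4 pools compared, 922 at an adjusted p under 0.1, and 10 to 1087 without 1 pool, the highest without THX pool 1. The cause was not tested. The differences between pool 1 and pool 2 correlated at 0.0965 for THX and Long, 0.285 for THX and Short and −0.0627 for Long and Short over 18019 genes. Whether pools of the same number are paired cannot be decided from these 3 values. With the pool number as a replicate block 1 collagen passed in THX against Short (COL11A1, adjusted p = 0.0432) and the calls over all genes were 48, 0 and 392. Without 1 pool the median log2 difference in THX against Long ran from −0.26 to −0.12 over all collagens, −0.83 to −0.22 over fibrillar and −0.14 to −0.032 over basement membrane and −0.31 to −0.11 over other chains, and it was −0.21 with type IV chains alone. In Long against Short it ran from −0.15 to 0.025 over all collagens, −0.34 to −0.17 over basement membrane and −0.13 to 0.069 over other chains. In THX against Short it ran from −0.36 to −0.22 over all collagens, −0.80 to −0.46 over fibrillar and −0.32 to −0.17 over other chains. Scaling by total counts moved the median of all tested genes in THX against Short to −0.11, and that of all collagens and of basement membrane chains to −0.46 each. The sign turned in at least 1 alternative for 11, 23 and 9 of the 39 members in THX against Long, Long against Short and THX against Short. Among the 4 members of each class with the highest mean level, in THX against Long it turned for COL4A6 (−0.028 with total counts, −0.041 without THX pool 1, −0.016 without Long pool 2), COL4A5 (−0.039 without THX pool 1) and COL8A1 (−0.071 without THX pool 1, −0.022 without Long pool 1). Their highest values without 1 pool were 0.077, 0.13 and 0.45.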
